A study of Mus musculus with 2 samples.

Results

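Broad but weak NELF-B regions are stretches of chromatin where NELF-B was enriched over a long span without a high summit. They were chosen from 1 list of NELF-B regions by 2 measured values, a summit height of 44 or less and a width of 1400 bp or more, and 614 of the 9095 regions met both limits (6.75%). The height is the number printed beside each summit, in the authors' own unit, which neither the labels nor the file headers define. The main comparison is with the 3979 regions of the same height range that were narrower, called narrow weak regions here. The 1536 regions of 1400 bp or more with a height above 44, called broad tall regions, serve as a second comparison of like width.

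The list came from chromatin immunoprecipitation sequencing (ChIP-seq), in which an antibody recovers the DNA fragments a protein is crosslinked to. The cells were mouse embryonic fibroblasts, connective tissue cells cultured from an embryo that carried 1 floxed and 1 null allele of Nelf-b, on a mixture of the 129/SvJ, C57BL/6 and FVB backgrounds. They grew asynchronously in medium with 10% serum and received no treatment, per the labels. A purified polyclonal antibody to NELF-B gave 1 library, and 1 input library of the same cells contributed no values here. Both libraries therefore share the allele combination, and no cells with 2 intact alleles or with none were compared. With 1 library there is no replicate error, no test between conditions and no check of any region in a second sample. Sequencing depth is unknown.

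NELF-B belongs to the negative elongation factor (NELF), which binds RNA polymerase II soon after it starts a transcript and holds it paused close to the promoter. Release of the pause by the kinase P-TEFb lets the polymerase move into the gene body. In ChIP-seq a factor held at 1 point gives a sharp peak whose sides are set by fragment length, while a factor spread along DNA, or sitting at several points close together, gives a longer enriched span. A summit is the position of the highest signal within a region, and the flanks are the distances from it to the left and right edges.

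Together the broad weak regions covered 1020 kb, which is 9.27% of all sequence in the list, and held 4.27% of the summed summit height. Their heights ran from 16 to 44 with a median of 36 and quartiles of 30 and 41. The narrow weak regions had a median height of 31. Within the height range set by the rule, the broad weak regions thus lay towards the upper end: 188 of them had heights of 40 to 44, and 47 were below 25. Their widths ran from 1400 to 2834 bp with a median of 1591 bp and quartiles of 1485 and 1761 bp, and 60 spanned 2000 bp or more. Among the 614, height and width were nearly unrelated, with a Spearman's rho of 0.10 over regions of 1 library. Because the rule used height and width, these values describe the choice and are not results.

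**Figure D1:**
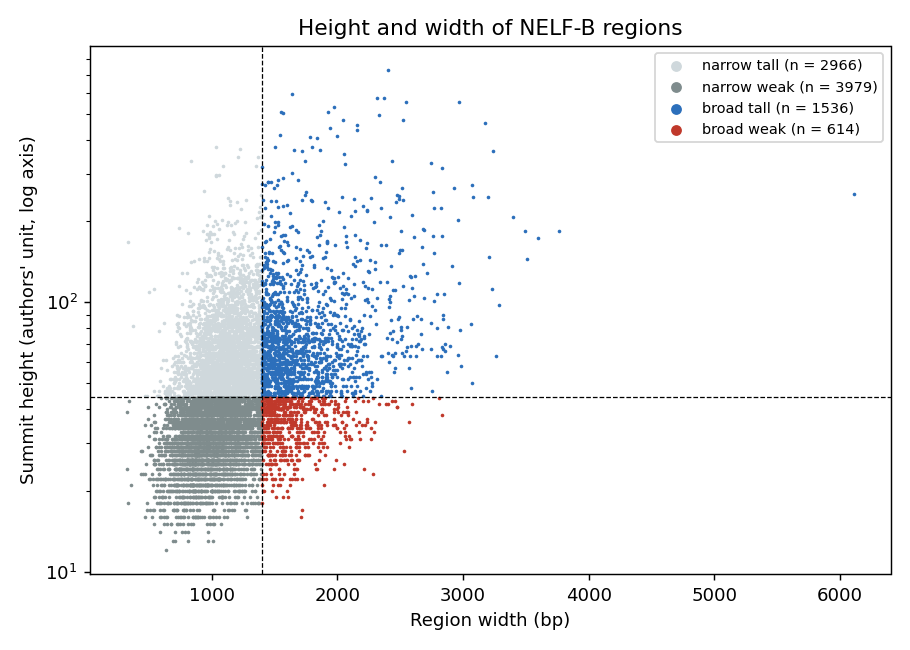
Summit height (vertical, log axis, authors' unit) against width (horizontal, bp) for each of the 9095 NELF-B regions, 1 point per region, with dashed lines at the 2 limits. The 614 broad weak regions fill the lower right corner up to 2834 bp, beneath the 1536 broad tall regions, and the points run on without a break across both limits.

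Neither limit fell at a break in the list. There were 40 weak regions within 20 bp just inside the width limit and 52 within 20 bp just outside it. At 1400 bp or more, 35 regions had a height of 44 and 40 had a height of 45. The median summit offset, defined below, was 16.2% in the 40 regions just inside the width limit and 13.8% in the 52 just outside it. At the height limit it was 15.8% in the 35 regions of height 44 and 19.8% in the 40 of height 45.

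The widest broad weak region spanned 2834 bp, from 127078798 to 127081631 on chromosome 10, and its height was 38. Its summit at 127079648 had 851 bp of enriched sequence to the left and 1983 bp to the right. The second widest, also on chromosome 10, ran from 128240345 to 128243151 with a height of 44, and its summit likewise lay towards the left edge, 808 bp from it and 1999 bp from the right. The third, on chromosome 7 from 52103696 to 52106290, had a height of 42 and flanks of 497 and 2098 bp. On chromosome 14, the region from 32018027 to 32020555 had a height of 28, and here the long flank was on the left, at 2070 bp against 459 bp. The other of the 5 widest, at 122223417 to 122225986 on chromosome 14, had a height of 36 and flanks of 1576 and 994 bp. In 4 of these 5 regions the long flank was more than 2 times the short one, and it pointed to the right in 3 of the 5. Positions are those of the deposited list. Since no source used here names its genome build, no gene, exon or promoter is assigned to any region.

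The lowest broad weak regions were shallow over their whole span. A region of 1714 bp on chromosome 5, from 144075703 to 144077416, had a height of 16, close to the 12 of the lowest region in the list. On chromosome 1, from 92949175 to 92950891, a span of 1717 bp reached 17. Chromosome 8 held a region of 1402 bp with a height of 18 at 86398428 to 86399829. Heights of 19 were found on chromosome 13 from 22065817 to 22067325 and on chromosome 5 from 148103146 to 148104751. These 5 did not share a shape: the summit of the chromosome 13 region lay 0.364% of the width from the centre, and that of the second chromosome 5 region 30.6%.

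In broad weak regions the summit lay off centre more often than in narrow weak regions. The summit offset is the distance from the summit to the middle of the region as a percentage of its width, so that 0% is the centre and 50% an edge. The median offset was 17.2% in the 614 broad weak regions (exact 95% interval of the median 15.9 to 18.0) and 8.51% in the 3979 narrow weak regions (8.15 to 8.86), a difference of 8.73 percentage points (7.34 to 9.60). In base pairs the median distance from the centre was 271.5 bp against 83.5 bp. The broad weak regions had the higher median offset on 20 of 20 chromosomes. All intervals here cover counting error over regions of 1 library and treat regions as independent.

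The classes of offset were filled differently. In narrow weak regions the most frequent class was a summit less than 5% from the centre, with 30.2% of regions (28.8 to 31.7), and the classes fell steadily from there. In broad weak regions that class held 15.0% (12.3 to 18.1), and the fullest classes were 15 to 20% with 21.7% (18.5 to 25.1) and 20 to 25% with 21.2% (18.0 to 24.6). The summit lay in the outer 25% of the width on either side in 96 of 614 broad weak regions or 15.6% (12.9 to 18.8), and in 178 of 3979 narrow weak regions or 4.47% (3.85 to 5.16). A centred shape was still present among the broad weak regions: in 173 of them (28.2%) the summit lay within 10% of the width from the centre, where the narrow weak regions had 56.3%. Broad tall regions had a median offset of 14.9% (14.3 to 15.8), so the difference from regions of like width was 2.29 percentage points (0.72 to 3.30), and their share in the outer 25% was 12.6%, a difference of 3.07 points (-0.22 to 6.58). At the height limit itself the order was the opposite, as given above.

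**Figure D2:**
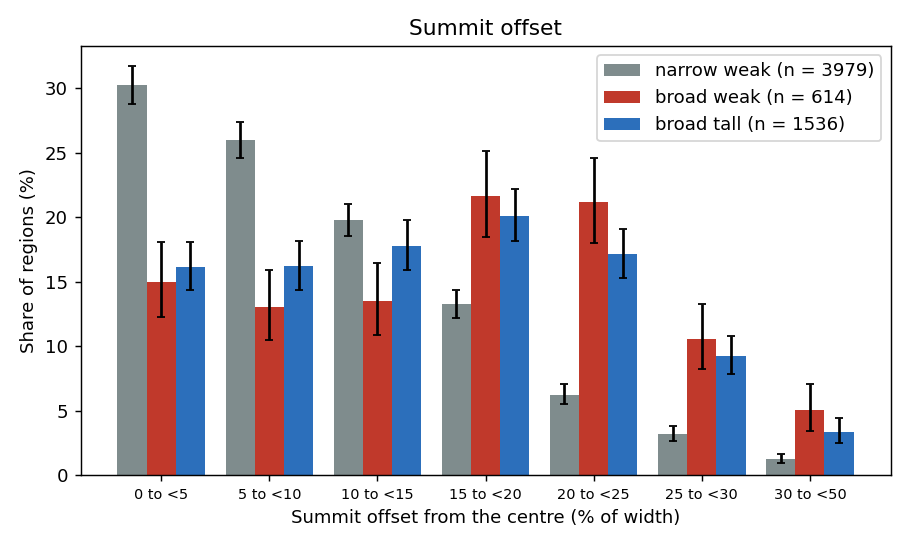
Share of regions (vertical, %) in 7 classes of summit offset from the centre (horizontal, % of width), for narrow weak, broad weak and broad tall regions. Bars are shares and error bars exact 95% binomial intervals; the narrow weak regions peak in the class below 5%, at 30.2%, and the broad weak regions between 15 and 25%.

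Among broad weak regions, summits were found on both sides in similar numbers. The summit lay left of the centre in 321 broad weak regions and right of it in 293, or 52.3% on the left (48.2 to 56.3). The share was 54.0% (52.5 to 55.6) in narrow weak regions and 52.7% (50.2 to 55.3) in broad tall regions. In narrow tall regions, narrower than 1400 bp with a height above 44, it was 54.2% (52.4 to 56.1). Every set, the broad weak regions included, thus had somewhat more summits on the left. In the broad weak regions, the smallest set, the interval also allowed an even split. Their share differed from that of the narrow weak regions by -1.75 points (-6.08 to 2.55), so no difference in side between these sets was shown. With respect to neighbours, the summit was on the side of the nearest other region in 51.0% of the broad weak regions (46.9 to 55.0) and in 50.2% of the narrow weak ones (48.6 to 51.8).

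Between narrow and broad weak regions the median longer flank differed more than the median shorter flank. The median longer flank was 1062.5 bp (1049 to 1084) against 582 bp (574 to 589) in narrow weak regions, 480.5 bp more. The median shorter flank was 519.5 bp (501 to 539) against 403 bp (400 to 407), 116.5 bp more. A width is the sum of its 2 flanks, so the width limit itself favours longer flanks. The longer flank is by definition the greater of the 2, so its larger part of the extra length was partly fixed in advance. Tall regions showed the same split. Their median longer and shorter flanks were 1079 and 572 bp in broad tall regions, and 658 and 457 bp in narrow tall regions. The longer flank was at least 2 times the shorter in 51.5% of broad weak regions (47.4 to 55.5) and in 18.6% of narrow weak regions (17.4 to 19.9). In broad tall regions, of like width, that share was 44.3% (41.8 to 46.8).

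Across the middle width classes of weak regions the median longer flank rose more than the median shorter flank. The median shorter flank was 395 bp at 800 to under 1000 bp of width, 470 bp at 1200 to under 1400 bp and 527 bp at 1600 to under 1800 bp. Over the same classes the median longer flank rose from 510 to 801 and then 1152 bp. This did not hold in the step up from widths below 800 bp, or in the step to 2000 bp or more. Below 800 bp the medians were 287 and 416 bp, at 1800 to under 2000 bp they were 583 and 1291 bp, and in the 60 regions of 2000 bp or more the shorter flank was 747.5 bp (597 to 818) and the longer 1421.5 bp (1335 to 1557). No class at the 1400 bp limit stood apart from its neighbours, and the median offset, 8.28% below 800 bp, went from 5.73% at 800 to under 1000 bp through 13.1% at 1200 to under 1400 bp to 18.5% at 1600 to under 1800 bp, and was 17.3% in the widest class. Compared with the broad tall regions, the broad weak regions had the lower median shorter flank, 519.5 against 572 bp (difference -52.5 bp, -76.3 to -31.0), while the longer flanks had medians of 1062.5 and 1079 bp.

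**Figure D3:**
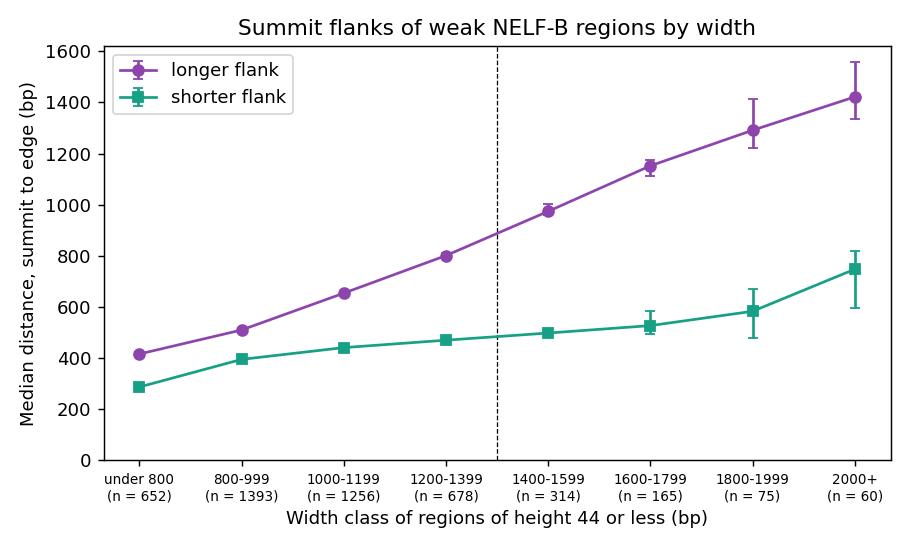
Median distance from the summit to the farther edge and to the nearer edge (vertical, bp) in 8 width classes of regions of height 44 or less (horizontal, bp), with exact 95% intervals of the median and the number of regions under each class. The longer flank climbs from 416 to 1421.5 bp and the shorter one from 287 to 747.5 bp; the dashed line marks the width limit of 1400 bp.

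The summit offset was also compared within strata of height. In each of 5 height strata the broad weak regions had the higher median offset. At heights up to 24 it was 18.5% in 47 broad weak regions (12.7 to 23.2) and 9.52% in 771 narrow weak ones (8.76 to 10.7). At heights of 40 to 44 it was 15.7% in 188 (13.0 to 17.0) and 8.11% in 665 (7.40 to 8.92). The share of weak regions that were broad rose with height over these strata, from 5.75% at heights up to 24 to 22.0% at 40 to 44. Since the rule used both height and width, these shares describe the choice and are not a result.

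The most off-centre summit among the broad weak regions lay on chromosome 7, in the region from 134888372 to 134890004 with a height of 39. There 1453 bp of enriched sequence stretched to the left of the summit and 180 bp to the right, an offset of 39%. The region from 102993112 to 102994894 on chromosome 11, with a height of 42, had 1577 bp on the left and 206 bp on the right. Its nearest region, 14.5 kb to the left, was a broad tall one with a height of 224. On chromosome 15, from 78236036 to 78237446, the flanks were 1213 and 198 bp at a height of 23. Chromosome 6 held the other 2 of the top 5: 82982620 to 82984489, with flanks of 1605 and 265 bp, and 38248136 to 38249880, with flanks of 249 and 1496 bp. The 96 regions with a summit in the outer 25% had a median shorter flank of 380 bp, below the 403 bp of narrow weak regions, and a median longer flank of 1373 bp. The 173 with a summit near the centre had medians of 725 and 881 bp. Both kinds had 8 other regions within 500 kb at the median.

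The share of regions with a close neighbour was equal in both weak sets at 10 kb and higher for broad weak regions at 50 kb. Another region, of any height or width, lay within 10 kb of 97 of the 614 broad weak regions, or 15.8% (13.0 to 18.9), and of 629 of the 3979 narrow weak regions, also 15.8% (14.7 to 17.0). The interval of that difference was -3.04 to 3.31 points. Within 5 kb the shares were 5.37% and 5.08%. Within 1 kb a neighbour was found for 0 of 614 broad weak regions, which allows a share of up to 0.489% when the limit is set at 3 counts of the total (exact upper bound 0.599%), and for 0 of 3979 narrow weak ones. Such neighbours were rare in tall regions too, at 7 of 1536 broad tall (0.456%) and 11 of 2966 narrow tall ones (0.371%). For broad weak regions the nearest approach was 1056 bp, on chromosome 8. It lay between a broad weak region of height 32 from 87604172 to 87605658 and a region of height 52 from 87606715 to 87607668. Within 50 kb the broad weak regions had a neighbour in 62.1% of cases (58.1 to 65.9) and the narrow weak ones in 55.1% (53.5 to 56.6), 6.99 points fewer (2.72 to 11.1). The median gap between the edges of a region and its nearest neighbour was 34.5 kb (29.98 to 36.9) for broad weak regions, 41.3 kb (39.2 to 44.2) for narrow weak ones and 27.7 kb (25.8 to 29.8) for broad tall ones. On this measure the broad weak regions lay between the narrow weak and broad tall sets. They were close to the narrow tall regions, at 33.7 kb (31.5 to 35.8), and to the whole list, at 35.8 kb (34.4 to 37.1). Of the narrow tall regions 61.5% (59.7 to 63.2) had a neighbour within 50 kb. With a height limit of 32, the median gap of broad weak regions differed from that of narrow weak ones by -6.76 kb (-12.8 to 4.71). The 75 broad weak regions of 1800 to under 2000 bp had a median gap of 49.4 kb, against 30.8 to 34.8 kb in the other broad weak width classes.

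The broad weak regions with a neighbour within 10 kb were shaped much like those without. Their median width was 1630 bp against 1586 bp, their median offset 17.8% against 16.7%, and their median height 36 in both sets.

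Local density showed the same order. Counting other regions within 500 kb on either side of the summit, the median was 8 for broad weak regions (7 to 8), 6 for narrow weak ones (6 to 6) and 9 for broad tall ones (8 to 9). Of the broad weak regions 22.0% (18.8 to 25.5) had 15 or more others in that window, against 16.2% (15.0 to 17.3) of the narrow weak ones, a difference of 5.83 points (2.40 to 9.49). Within 1000 kb on either side the medians were 12 and 11, and the interval of that difference, -0.41 to 3, included 0. With a height limit of 40 the difference within 500 kb was 1 (0 to 2). At the empty end, 3.26% and 3.77% had none within 500 kb. Narrow tall regions were close to the broad weak ones in density. Their median within 500 kb was 7 (7 to 8), and 21.0% (19.6 to 22.5) had 15 or more others. The whole list had a median of 7. In each of the 5 height strata the broad weak regions had the higher median, 7 to 9 against 6. By chromosome the median of the broad weak regions was higher on 14, equal on 4 and lower on 2. The widest gap was on chromosome 7, with medians of 15 and 8, and the order was turned on chromosomes 9 (5 and 6) and 19 (8 and 10). The density did not climb evenly with width: it was 9 at 1600 to under 1800 bp, 6 at 1800 to under 2000 bp and 8 at 2000 bp or more.

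**Figure D4:**
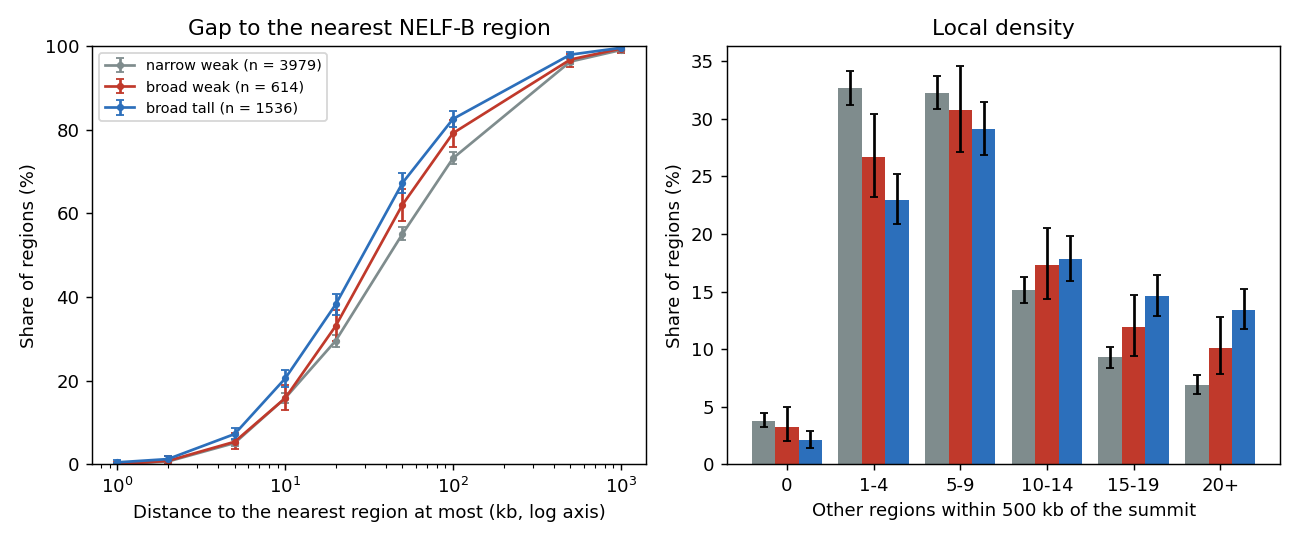
Left, the share of regions (vertical, %) whose nearest other region is at most a given distance away (horizontal, kb, log axis); right, the share of regions (vertical, %) by the number of other regions within 500 kb of the summit (horizontal). Error bars are exact 95% binomial intervals; broad weak and narrow weak regions coincide at 10 kb, at 15.8% each, and part by 50 kb, at 62.1% and 55.1%.

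The kinds of region nearest to broad weak regions came in shares near those of the whole list. For 286 of the 614 the nearest region was narrow and weak (46.6%), for 180 narrow and tall (29.3%), for 98 broad and tall (16%) and for 50 another broad weak region (8.14%, 6.10 to 10.6). These kinds made up 43.7%, 32.6%, 16.9% and 6.75% of the list. For narrow weak regions the first 3 shares were 48.5%, 31.0% and 13.4%. A broad weak region was nearest to 7.01% of narrow weak regions (6.24 to 7.85), so the 2 intervals overlapped. The nearest region was taller than the broad weak region itself in 64.3% of cases (60.4 to 68.1) and taller than the narrow weak region in 72.7% (71.3 to 74.1), where the narrow weak regions were also the lower ones to begin with. Among neighbours within 10 kb these shares were 66.0% (55.7 to 75.3) and 70.4% (66.7 to 74.0), a difference of -4.45 points (-15.4 to 5.59). The sign of that difference was not stable: with the narrow weak regions reweighted to the heights of the broad weak ones their share was 63.2%, or 2.79 points below that of the broad weak regions, and with a height limit of 32 the difference was 2.18 points. Without reweighting it was -9.90 points (-17.4 to -2.77) for neighbours within 20 kb and -8.42 points (-13.8 to -3.27) within 50 kb.

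A few broad weak regions lay beside some of the tallest in the list. On chromosome 3, a region of height 38 from 96081217 to 96082699 stood 6840 bp from the tallest region of all, which reached 730. On chromosome 11, a region of height 41 from 116703753 to 116705476 lay 8414 bp from one of 238. A region of height 43 on chromosome 15, from 96539393 to 96541277, lay 8134 bp from one of 211. The other 2 of the top 5 were on chromosome 4 at 131900393 to 131901840, with a neighbour of 184, and on chromosome 1 at 74443132 to 74444627, with a neighbour of 153. The chromosome 3 region and its neighbour were both broad, at 1483 and 2402 bp.

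The most crowded broad weak region, 5444272 to 5445694 on chromosome 19, reached a height of 31 and had 33 other regions within 500 kb of its summit. Its nearest neighbour was 1676 bp away. Chromosome 7 held the next 3, at 134591477 to 134593151 with 32 others, and at 134375870 to 134377369 and 134488522 to 134490166 with 31 each. On chromosome 11 the region from 101092418 to 101094004 had 30. Heights of these 5 were 31 to 44, within the 16 to 44 of all broad weak regions.

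At the other end, 4 of the 614 broad weak regions had no other region within 1 Mb. The share with a neighbour within 1 Mb was similar in all sets. It was 99.3% for broad weak (98.3 to 99.8), 99.0% for narrow weak, 99.5% for broad tall and 99.2% for narrow tall regions. The most isolated broad weak region, at 59158481 to 59159928 on chromosome 6, reached a height of 27 and had a gap of 1504.5 kb. It was followed by 71629267 to 71630970 on chromosome 4, where the height was 42 and the gap 1432 kb, and by 165110990 to 165112756 on X, where they were 27 and 1312 kb. On chromosome 1, the regions from 107559576 to 107560977 and from 178743965 to 178745443 had gaps of 1095 and 933 kb and heights of 43 and 27. These 5 were picked for their large gaps, so none had another summit within 500 kb.

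Most broad weak regions had no other broad weak region within 50 kb. They make up 6.75% of the list, and the grouping that this share alone would give was not worked out. With gaps of at most 10 kb between consecutive members, 13 of the 614 fell into 6 groups. At most 100 kb gave 45 groups with 96 members (15.6%), the largest of 4. With gaps of at most 50 kb, 46 (7.49%) fell into 21 groups, of which 4 had 3 members and none had more. The tightest trio lay on chromosome 8 from 73388742 to 73405186, where 3 regions with heights of 35, 31 and 34 and widths of 1459, 1666 and 1431 bp filled a span of 16.4 kb. There was no other region between them. The other 3 trios were on chromosome 7. From 52070736 to 52113769 lay regions of heights 36, 42 and 35, among them the third widest of all. From 134851255 to 134890004 lay heights of 29, 28 and 39, the last being the region with the most off-centre summit. From 53085613 to 53177181 heights of 43, 41 and 34 shared a span of 91.6 kb with 2 regions of other kinds. No region of another kind lay inside 3 of the 4 trios.

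All 20 chromosomes of the list held broad weak regions, from 16 on chromosome 19 to 50 on chromosome 7. Their number followed that of weak regions, with a Spearman's rho of 0.80 across the 20 chromosomes, which share 1 library and are no independent samples. The share of weak regions that were broad had a median of 13.0% over the 19 autosomes. It was lowest on chromosome 5, at 10.1% (6.85 to 14.1), and chromosome 1, at 10.7% (7.22 to 15.1). On X it was 12.5% (7.58 to 19.03) beside 13.4% (12.4 to 14.4) for all autosomes, a difference of -0.90 points (-5.92 to 5.71). Chromosome X thus had few broad weak regions, 18, but also few weak regions of any width, 144.

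Chromosome 8 had the highest share. There 49 of 213 weak regions were broad, or 23.0% (17.5 to 29.2), where the other 18 autosomes together had 547 of 4236, or 12.9% (11.9 to 13.96), a difference of 10.1 points (4.52 to 16.4). The next highest was chromosome 17 with 15.8% (11.0 to 21.7). Chromosome 8 was singled out after the values of all 20 chromosomes were seen, and the interval is not adjusted for that. Among regions above 44 in height, 42.6% of those on chromosome 8 were broad (37.3 to 48.1), against 33.5% (32.1 to 34.97) on the other autosomes, again the highest of the 20. The weak regions of chromosome 8 had a median height of 33, beside medians of 31 to 34 on single other chromosomes. In 5 of 5 height strata the broad share was higher on chromosome 8, from 11.4% against 5.39% at heights up to 24 to 38.6% against 21.0% at 40 to 44. The intervals of single strata overlapped except at 40 to 44 (24.4 to 54.5 and 18.2 to 23.98).

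Along chromosome 8, split into 4 runs of 137 or 138 consecutive regions, the broad share of weak regions was 28.0% (16.2 to 42.5), 30.6% (18.3 to 45.4), 21.2% (11.1 to 34.7) and 14.5% (6.86 to 25.8). The run with the lowest share, from 112274072 to 131210658, also had the lowest median height of all its regions, 46 beside 52 to 56 in the other 3. Counts of 9 to 15 broad weak regions per run leave these intervals overlapping. The 49 broad weak regions of chromosome 8 had a median width of 1568 bp and a median offset of 15.7%, against 1591 bp and 17.3% for the 565 elsewhere. Median flanks were 527 and 1083 bp, beside 519 and 1062 bp. They had 10 other regions within 500 kb and a gap of 27.3 kb to the nearest region at the median, against 7 and 35.2 kb elsewhere.

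**Figure D5:**
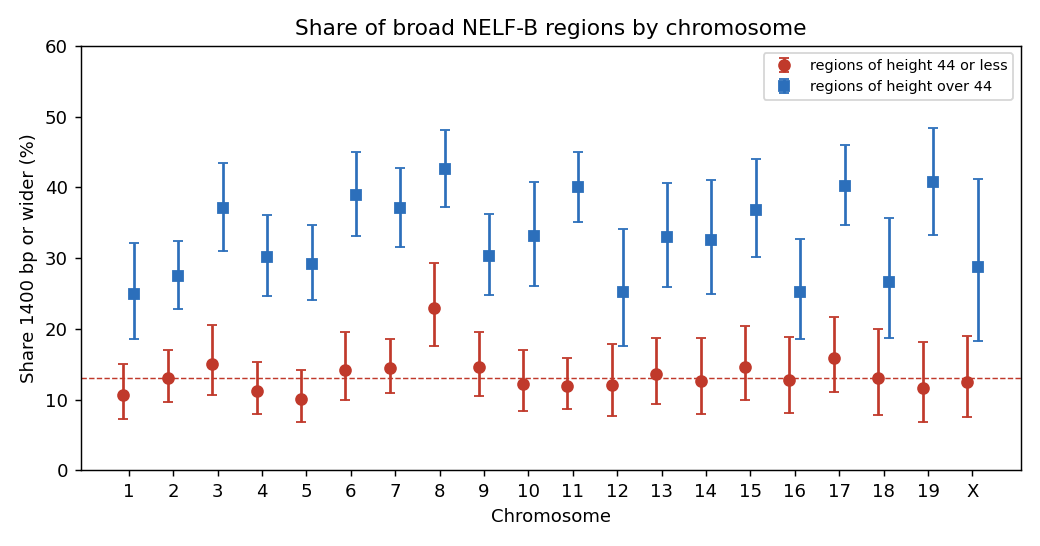
Share of regions that are 1400 bp or wider (vertical, %) on each chromosome (horizontal), among regions of height 44 or less (circles) and above 44 (squares), with exact 95% binomial intervals; the dashed line is the autosomal median of the circles, 13.0%. Chromosome 8 stands highest in both sets, at 23.0% and 42.6%.

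Across the 20 chromosomes the broad share of weak regions and that of tall regions were loosely related, with a Spearman's rho of 0.46 and a Pearson's r of 0.56, and 0.36 and 0.46 without chromosome 8. Chromosomes 11 and 19 had high broad shares among tall regions, 40% and 40.7%, and shares of 11.95% and 11.6% among weak ones.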

How the data were processed

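NELF-B ChIP-seq gave 1 deposited file whose 3 tracks, per the file headers, hold peaks, intervals and active regions, 9095 entries in each. The last 2 tracks were identical. The number beside a summit is a score deposited by the authors, all whole numbers, of a unit stated nowhere. MACS, a peak caller, is named in the submitters' processing notes, without a version. No source used here gives the aligner, threshold, genome build or use of the input. Chromatin was fixed with 1% formaldehyde for 15 min, sheared to 300 to 500 bp, and size-selected at 175 to 225 bp, per the labels' protocols. Of the summits, 9005 are multiples of 16 bp, which limits offsets. In the gene table at hand (GRCm38.p6), 88 regions on 7 chromosomes start past the last gene, so the list is in other coordinates, and neither genes nor sequences are given.

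Intervals were joined to summits by file order, and all 9095 summits lay inside theirs. Width is end minus start. Printed starts were raised by 1, and flanks were counted from the deposited positions. Shares have exact Clopper-Pearson 95% intervals and medians exact order-statistic 95% intervals. The interval of a difference adds both half-intervals in quadrature. Regions of 1 library are no replicates of a condition, so no test was made. The members and settings were chosen with earlier results of these data known. Named regions are the 5 widest, lowest, most off-centre, most isolated, most crowded and those beside the tallest neighbours, and groups of 3 or more members at most 50 kb apart. The closest neighbour was named in addition, after its value was seen. Calculations were tested on simulated data. Scripts ran under Python 3.11.15 with pandas 2.3.3, SciPy 1.17.1, matplotlib 3.10.9 and NumPy 2.4.6.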

Additional observations from a re-analysis of the deposited data

How the results depend on the processing

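Differences here are broad weak minus narrow weak regions unless stated. Of 240 alternatives over 11 results, 158 left out 1 chromosome each, and none of these took a value outside its interval; those on chromosome 8 and 1 on taller neighbours were chosen after seeing the data. Of the other 82, 60 left the value inside its interval or the count within 1.5 times. A height limit of 32 left 214 broad weak regions, with differences of 9.63 points in median offset, 93 bp in the shorter flank and 517.5 bp in the longer. A width limit of 1600 bp left 300, with differences of 20.01 points in the share of summits in the outer 25%, 168 bp in the shorter flank and 612 bp in the longer, and the excess of chromosome 8 over the other autosomes fell to 4.40 points. At 1300 bp the longer flank differed by 422 bp. The share of summits in the outer 15% differed by 0.852 points and in the outer 35% by 34.3. The share with a neighbour differed by 3.53 points at 20 kb and 6.99 at 50 kb, and the share of taller neighbours, -4.45 points at 10 kb with an interval that includes 0, by 9.36 points at 5 kb, 2.79 with the heights reweighted and 2.18 at a height limit of 32. The share of taller neighbours kept its sign at 20 kb (-9.90) and 50 kb (-8.42). It also did so at a height limit of 40 (-6.09) and width limits of 1300 bp (-6.00) and 1600 bp (-7.95). Set against broad tall regions, the differences were 2.29 points in median offset, 3.07 in the outer 25% and -4.71 in neighbours within 10 kb. Of the differences from narrow weak regions whose interval did not include 0, 4 had the opposite sign against broad tall regions. The shorter flank differed by -52.5 bp (-76.3 to -31.0) and the gap by 6.84 kb (1.86 to 9.86). Intervals included 0 for the longer flank, at -16.5 bp (-38.2 to 9.72), and for the number within 500 kb, at -1 (-2 to 0). Another limit or comparison set changes which regions enter, and beyond that the cause was not tested. No paired analysis was possible because the input library gave no values, and no replicate could be left out. The unknown depth limits every height and edge.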

Other observations

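Summits off the 16 bp grid were found in 90 regions of the list, with a median height of 26. Of these, 80 had a height of 44 or less and 17 were broad weak regions. The share of summits on the grid was 97.2% among broad weak regions (exact 95% interval 95.6 to 98.4), 98.4% among narrow weak regions and 99.9% among broad tall regions.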
